A study of Mus musculus with 6 samples.

Results

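The heparan sulfate proteoglycans and the enzymes that build, sulfate and trim their chains were followed in whole embryonic lungs lacking Foxp transcription factors in the endoderm. The list holds 36 genes, chosen by name and grouped by role, with earlier results of these data known. Each was read from the array feature that carries its symbol alone. Of these, 35 were measured among 19938 genes tested, each by 1 feature. Ndst1 was not analysed here. RNA was taken at stage E14.5 from 3 control embryos, labelled Shh-Cre, and 3 mutant embryos, and hybridised to single-colour Affymetrix arrays. The mutant genotype label lists Shh-cre with Foxp1flox/flox, written at 2 positions, and Foxp4flox/flox, while the series title names Foxp1/2/4 and its design text calls the mutants DKO. All 6 embryos carried the Cre recombinase driven by Shh, which is active in the lung epithelium and not in the surrounding mesenchyme, and all were of mixed C57BL/6 and 129X1 strain. Whole lung holds both tissues, so a change confined to the epithelium is diluted in these values.

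Heparan sulfate is a sugar chain attached to core proteins at the cell surface and in the matrix. It is started on a serine by a xylosyltransferase, lengthened by the EXT enzymes, then N-sulfated, epimerized and O-sulfated in the Golgi, and it can be edited afterwards outside the cell. The pattern of sulfate groups sets which growth factors the chain holds. In the branching lung it binds FGF10 and helps present it to its receptor on the epithelium.

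Values are log2 RMA values, with a median gene between 7.32 and 7.38 on each array. Of the targeted genes, Foxp2 fell by 0.95 on the log2 scale and Foxp4 fell by 0.64 (limma adjusted p = 4.75e-05 and 0.00591), while Foxp1, at -0.31, did not pass (adjusted p = 0.0661). The position of these features relative to the deleted exons is not known here, so their levels are only a partial check of the labels. All 6 defining lung genes, among them Nkx2-1, Foxf1 and Tbx4, were high in every control (mean level 10.90 to 10.91). Of them 3 fell, and Sftpc, the surfactant protein C gene of distal epithelium, lay between 5.75 and 5.86 in the mutants against 11.35 to 11.41 in the controls. Of 10 epithelial markers 5 fell and 0 rose, with a mean level of 9.68 to 9.72 in the controls and 9.09 to 9.41 in the mutants. Of 8 smooth muscle markers 6 fell and 0 rose (9.54 to 9.58 in controls, 7.89 to 8.54 in the mutants), and of 8 macrophage markers 2 rose and 0 fell (7.40 to 7.59 and 7.74 to 7.92). Of 10 mesenchymal markers 2 rose and 0 fell (10.35 to 10.40 and 10.35 to 10.53), and 0 of 8 endothelial markers passed (10.38 to 10.39 and 10.21 to 10.41). Of 9 cartilage markers 2 fell, Cnmd and Sox9 (mean level of the list 7.49 to 7.55 in the controls and at most 7.28 in the mutants). The other cartilage markers, among them Col2a1 and Acan, did not pass. Of 4 red cell markers 2 fell (10.33 to 11.02 and 9.83 to 10.10), of 5 nerve markers 1 fell and of 6 mesothelial markers 1 rose. Heart muscle markers set mutant 1 apart, where the median deviation of 13 such genes from the control mean was 1.21, beside -0.27 in mutant 2 and -0.22 in mutant 3. On a log2 scale after RMA no marker can read 0. The part of these shifts in the results below was not tested, and in bulk RNA fewer cells of a type and less RNA per cell cannot be told apart.

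Of the 35 measured members, 9 differed between mutant and control lungs, against 7.66% of all genes tested. Since the members were chosen with earlier results of these data known, these shares describe the list and are not a test of it. Extl1, Sdc4, Hs6st1, Sdc1 and Sulf2 fell, and Hs6st2, Hs3st1, Hs3st3b1 and Sdc2 rose. These are 5 falls, against 3.83% of all genes in that direction, and 4 rises, against 3.84%. The median difference of the members was -0.04, beside -0.01 over all genes, so they did not shift one way. The median size of the difference was 0.17 for the members and 0.08 for all genes. Mutant and control values did not overlap for 19 members, 10 with the mutants above and 9 with the mutants below, where 25.9% of all genes do not overlap (13.4% and 12.6% by direction). An unadjusted limma p under 0.05 was reached by 17 of the 35, and by 3957 of all 19938 genes.

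The changes were small. With a fold of at least 1.5 also required, 2 members remained, Extl1 and Hs6st2, beside 2.75% of all genes. The count of 9 was 4, 3 and 3 without control 1, control 2 and control 3. Over all genes the count of 1528 was 876, 793 and 778 in the same fits. Extl1 and Sdc4 passed in each of those fits. With each array centred on its median, 5 members fell and 1 rose. Over all genes 760 then fell and 572 rose, beside 763 and 765 without centring. The median SD of a member was 0.06 in the controls and 0.13 in the mutants, beside 0.06 and 0.10 over all genes.

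**Figure D1:**
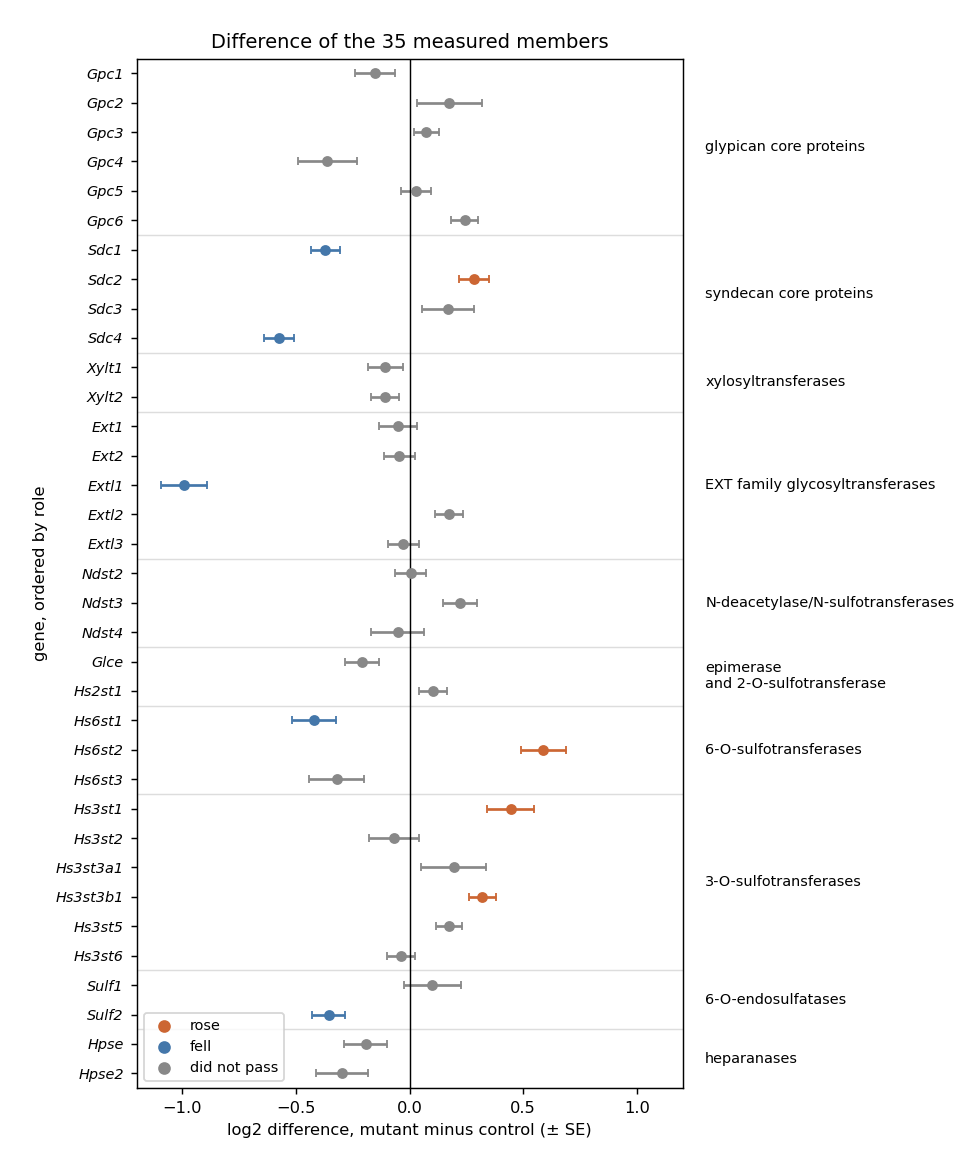
Log2 difference, mutant minus control, with its SE (n = 3 per group) for the 35 measured members, ordered by role; colour marks members that passed the limma threshold in each direction. Extl1 lies farthest to the left (-0.99) and Hs6st2 farthest to the right (0.59), and the syndecans and 6-O-sulfotransferases hold members on both sides.

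The bases before the annotated starts of 4 changed members are shown to let the regulatory letters be seen beside the values. They are Extl1 and Sdc4, the members with the largest falls, Hs6st1, which fell while its paralog rose, and Hs3st3b1, which rose. Each is the stretch of 250 bases just before the start, on the gene's own strand, from RefSeq on GRCm38.p6. The windows are chr4:134372548-134372797 (minus strand) for Extl1, chr2:164443189-164443438 (minus) for Sdc4, chr1:36068150-36068399 (plus) for Hs6st1 and chr11:63922285-63922534 (minus) for Hs3st3b1. Capitals mark the GC box GGGCGG, a motif bound by Sp factors, on either strand.
Extl1: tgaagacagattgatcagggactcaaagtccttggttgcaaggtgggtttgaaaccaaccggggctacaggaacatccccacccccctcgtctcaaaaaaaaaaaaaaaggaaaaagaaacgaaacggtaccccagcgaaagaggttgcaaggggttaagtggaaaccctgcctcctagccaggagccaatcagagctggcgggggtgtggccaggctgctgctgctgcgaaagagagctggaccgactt
Sdc4: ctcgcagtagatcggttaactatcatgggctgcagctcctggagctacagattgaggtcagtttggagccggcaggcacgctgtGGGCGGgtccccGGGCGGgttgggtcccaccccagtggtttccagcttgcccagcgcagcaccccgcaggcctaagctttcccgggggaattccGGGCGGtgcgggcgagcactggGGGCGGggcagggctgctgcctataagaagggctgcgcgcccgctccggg
Hs6st1: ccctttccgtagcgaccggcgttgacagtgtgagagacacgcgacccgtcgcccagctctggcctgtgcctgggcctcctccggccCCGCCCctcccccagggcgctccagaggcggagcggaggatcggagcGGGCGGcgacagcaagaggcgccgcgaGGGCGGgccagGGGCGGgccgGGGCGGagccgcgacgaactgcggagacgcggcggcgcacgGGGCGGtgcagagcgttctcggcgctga
Hs3st3b1: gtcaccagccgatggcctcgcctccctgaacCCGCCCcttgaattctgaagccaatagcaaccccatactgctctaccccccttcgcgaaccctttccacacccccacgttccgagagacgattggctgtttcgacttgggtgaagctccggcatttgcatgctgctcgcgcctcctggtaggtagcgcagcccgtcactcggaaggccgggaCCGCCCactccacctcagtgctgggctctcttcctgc
Extl1 has 0 GC boxes in this window and the lowest share of G and C of the 4 (53.2%). Sdc4 has 4, Hs3st3b1 has 2 and Hs6st1 has 6, with 76.4% G and C.

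Windows of this length were matched for 26 of the 35 members, and for 27018 genes in all. The members' windows were rich in G and C, with a median of 64.6% against 52.4% over all genes, and in CpG dinucleotides, with a median of 17 against 6. A GC box was found in 20 of the 26 (76.9%), and in 35.4% of all genes. The 27018 genes were not limited to those tested and were not matched to the members in base composition. The forkhead consensus was searched on both strands in 8 spellings, which begin with TATTT or TGTTT and end with AC, AT, GC or GT. They cannot lie inside a GC box, nor a GC box inside them. Of the 26 members, Sulf2 had a match, a TGTTTGC that begins 158 bases before 1 of its annotated starts, against 27.7% of all genes. Each spelling holds more A and T than G and C. The part of base composition in the GC box and forkhead shares was not tested. A match is only a run of letters, and its absence says only that these letters are not in these windows.

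Among the core proteins, 3 of 4 syndecans passed, of which 1 rose and 2 fell, and 0 of 6 glypicans did. Syndecans span the membrane and carry their chains outside the cell. Sdc4, the syndecan found at focal adhesions, read 9.04, 8.91 and 9.01 in controls 1, 2 and 3 and 8.38, 8.36 and 8.50 in mutants 1, 2 and 3. Every mutant lay below every control, by 0.57 on the log2 scale, or 1.49-fold (-0.57 ± 0.07, SE, 3 arrays a group, limma adjusted p = 0.00163). Its adjusted p stayed between 0.00116 and 0.0138 over 14 alternatives. Sdc1, the main syndecan of epithelia, read 10.07, 10.00 and 9.95 in the controls and 9.55, 9.65 and 9.72 in the mutants. It fell by 0.37 ± 0.07 on the log2 scale, with no overlap (adjusted p = 0.0128), and did not pass without control 1 (adjusted p = 0.062) or control 2 (0.0574), in a range from 0.00803 to 0.062. The epithelial markers, of which Sdc1 is not one, had a median difference of -0.39, and the mesenchymal markers had one of 0.01. The part of such cell type shifts in the syndecan values was not tested.

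Sdc2, a syndecan of mesenchymal cells, moved the other way. It read 10.05, 10.03 and 10.09 in the controls and 10.41, 10.22 and 10.39 in the mutants, with every mutant above every control. The difference was 0.28 ± 0.07 or 1.22-fold (limma adjusted p = 0.0401). This call was not firm, since it held in 6 of 14 alternatives, over which the adjusted p ran from 0.00966 to 0.155. Among the settings that ended it were those without control 1 (0.135), control 2 (0.155), control 3 (0.116), mutant 1 (0.092) or mutant 3 (0.111), repeated quantile normalization (0.0676) and median centring (0.064). Sdc3, a syndecan known from the nervous system, read 9.43, 9.28 and 9.36 in the controls and 9.56, 9.27 and 9.75 in the mutants. The groups overlapped, mutant 2 being the lowest of the 6, and Sdc3 did not pass (0.17 ± 0.12, adjusted p = 0.501).

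Sdc2 was also set against Sdc4 and Sdc1 on the same array. Only the change of such a ratio is read, since different features have different sensitivities. The log2 difference Sdc2 minus Sdc4 was 1.01, 1.12 and 1.08 in the controls and 2.03, 1.86 and 1.89 in the mutants. It grew by 0.86 ± 0.06, a 1.81-fold change of the ratio. For Sdc2 minus Sdc1 it was -0.03, 0.03 and 0.14 in the controls and 0.85, 0.57 and 0.68 in the mutants, a growth of 0.65 ± 0.09. The groups did not overlap for either pair. A two-sided exact permutation test gave p = 0.1 for each, the smallest that 3 against 3 arrays allow, and the same after adjustment over the 4 pairs compared. All 4 pairs set a gene higher on average in the mutants against a relative that was lower, so the change adds up their differences. Here each gene already showed no overlap alone, so the lack of overlap of the pairs and this p are no further support.

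**Figure D2:**
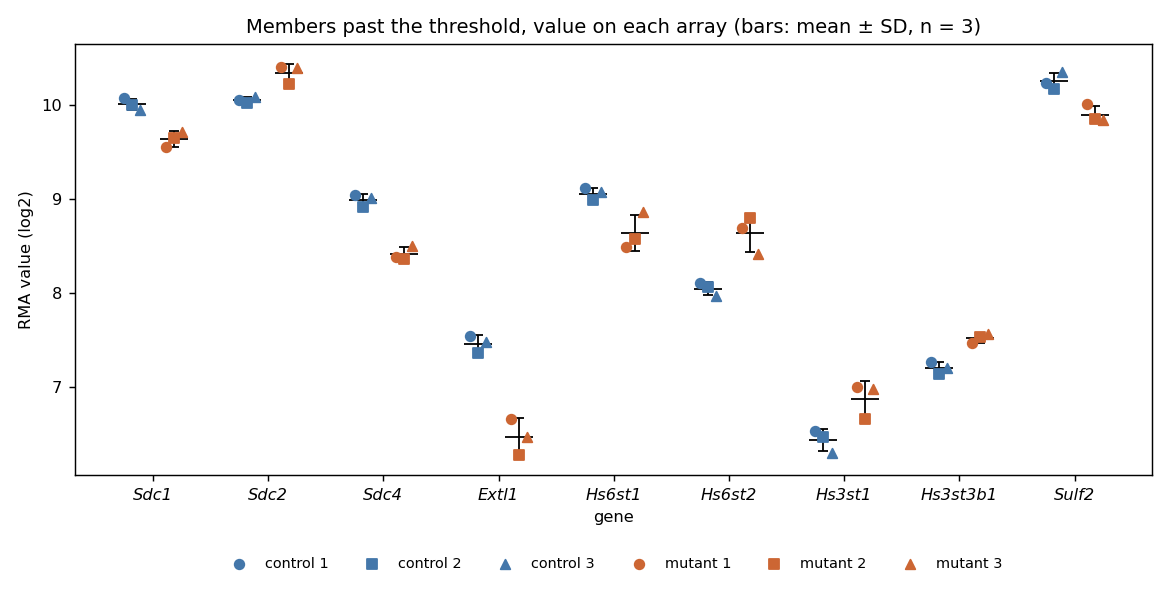
Log2 RMA value on each array (y axis) for the 9 members that passed the threshold (x axis); symbols are the 3 controls and 3 mutants, bars the mean and SD. In each gene the 3 mutants lie on one side of the 3 controls, below for Sdc1, Sdc4, Extl1, Hs6st1 and Sulf2 and above for the other 4.

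Glypicans are tied to the membrane by a lipid anchor. Of 6 glypicans, 0 rose and 0 fell, with differences from -0.36 to 0.24. Gpc6 came nearest, at 10.33, 10.33 and 10.37 in the controls and 10.66, 10.50 and 10.60 in the mutants. The mutants lay above the controls, at 0.24 ± 0.06 (limma adjusted p = 0.0518), and Gpc6 passed in 4 of 14 alternatives (adjusted p 0.0186 to 0.181), among them that without mutant 2 (0.0203). For Gpc6 mutant 2 was nearest the controls, so leaving it out favours a rise. Gpc4 read 9.43, 9.40 and 9.34 in the controls and 9.03, 8.73 and 9.32 in the mutants. Its mutants spread widely, with mutant 3 next to the controls, and the difference of -0.36 ± 0.13 did not pass (adjusted p = 0.163). Without mutant 3 it was -0.51 and passed (adjusted p = 0.0287, in a range of 0.0287 to 0.364). For Gpc4 mutant 3 was the mutant nearest the controls, so leaving it out favours a fall.

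Gpc3, a glypican whose loss causes an overgrowth syndrome, is bright in these lungs. It read 11.91, 11.91 and 11.96 in the controls and 12.04, 12.00 and 11.96 in the mutants, with mutant 3 level with the highest control to 2 decimals. Its difference was 0.07 ± 0.05 with a 95% interval of -0.05 to 0.20 (limma adjusted p = 0.539). Gpc1 (-0.15 ± 0.09), Gpc2 (0.17 ± 0.14) and Gpc5 (0.03 ± 0.07) overlapped between the groups and had adjusted p of 0.41, 0.596 and 0.874. Gpc2 was highest in mutant 2, at 8.51 against 7.91 and 8.21 in mutants 1 and 3. Gpc5 read below the median gene on every array, unlike Gpc6, its neighbour on chromosome 14.

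Most genes that start and lengthen the chain did not pass. The xylosyltransferase genes Xylt1 and Xylt2 were both at -0.11, with standard errors of 0.08 and 0.06 and limma adjusted p of 0.531 and 0.421. Ext1 and Ext2, whose products form the polymerase, were at -0.05 ± 0.08 and -0.04 ± 0.07, with 95% intervals of -0.24 to 0.14 and -0.20 to 0.11. Extl3, which adds the first N-acetylglucosamine, was at -0.03 ± 0.07 (interval -0.19 to 0.13). Differences beyond 0.24 in size lie outside all 3 intervals. Extl2, a related transferase that can end a chain, read higher in all mutants (7.96 to 8.11 against 7.82 to 7.90) and did not pass (0.17 ± 0.06, adjusted p = 0.159).

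Extl1, a further EXT family transferase, had the largest difference of all members. It read 7.54, 7.36 and 7.47 in controls 1, 2 and 3 and 6.66, 6.27 and 6.47 in mutants 1, 2 and 3. Controls lay near the level of the median gene and every mutant well below it. The difference was -0.99 ± 0.10 or 1.99-fold (limma adjusted p = 0.000982). It passed in 14 of 14 alternatives, with adjusted p from 0.000245 to 0.00883 and differences from -1.09 to -0.89.

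Of the 14 measured genes that sulfate or epimerize the chain, 3 rose and 1 fell. For N-sulfation, the first step, the 3 genes measured showed no call, and Ndst1 was not analysed here, so the step is only partly covered. Ndst2 was at 0.01 ± 0.07 (95% interval -0.15 to 0.16). Ndst3 and Ndst4 read between 4.27 and 5.24 on all arrays, below the median gene, and did not pass (limma adjusted p = 0.136 and 0.877), though Ndst3 did with array weights (0.0393, in a range up to 0.341). Glce, the epimerase that makes iduronic acid, read 9.31, 9.28 and 9.29 in the controls and 8.96, 9.22 and 9.06 in the mutants. All mutants lay below the controls, and the difference of -0.21 ± 0.07 did not pass (adjusted p = 0.154), except without mutant 2 (0.0272) and with array weights (0.0435), in a range up to 0.349. Mutant 2 was nearest the controls for Glce, as for Ndst3, and had the lowest array weight (0.34). Leaving it out or weighting it down therefore favours a difference. Hs2st1, which sulfates that sugar, was at 0.10 ± 0.06 (adjusted p = 0.432).

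The 6-O-sulfotransferases, whose sulfate groups matter for binding of FGFs and their receptors, moved apart. Hs6st2 read 8.10, 8.06 and 7.97 in the controls and 8.69, 8.80 and 8.41 in the mutants. All mutants lay above all controls, mutant 3 the least, and the difference was 0.59 ± 0.10 or 1.5-fold (limma adjusted p = 0.0104). It passed in 13 of 14 alternatives (adjusted p 0.00294 to 0.0562), the exception being the fit without control 3 (0.0562). Hs6st1 read 9.11, 8.99 and 9.07 in the controls and 8.49, 8.57 and 8.86 in the mutants. It was lower in every mutant, by 1.34-fold (-0.42 ± 0.10, adjusted p = 0.0391). That call was less firm, passing in 7 of 14 alternatives. Among the settings that ended it were those without control 1 (0.146), control 2 (0.096), control 3 (0.14), mutant 1 (0.0802) or mutant 2 (0.0774), and array weights (0.0507), in a range from 0.00713 to 0.146. Hs6st3 read 8.28, 8.51 and 8.28 in the controls and 8.04, 7.80 and 8.26 in the mutants, lower in every mutant, and did not pass (-0.32 ± 0.12, adjusted p = 0.183).

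On the same array, Hs6st2 minus Hs6st1 was -1.01, -0.93 and -1.10 in the controls and 0.20, 0.23 and -0.45 in the mutants. The groups did not overlap, which followed from the 2 genes showing no overlap alone and moving apart. Mutant 3 lay nearest the controls, as it did for each of these genes alone. The ratio changed 2.01-fold (1.01 ± 0.22, two-sided exact permutation p = 0.1, the smallest possible, and 0.1 over the 4 pairs).

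Hs6st2, Gpc4 and Gpc3 lie close together on the X chromosome, with 2 protein-coding genes between the first pair and 0 between the second, in the RefSeq annotation. They did not move together, being at 0.59, -0.36 and 0.07. Xist, the RNA that coats the inactive X of female cells, read 11.88, 12.18 and 5.51 in controls 1, 2 and 3 and 12.21, 12.17 and 5.77 in mutants 1, 2 and 3. It was thus low in 1 array of each group. Control 3 and mutant 3 had the lowest Hs6st2 values of their groups.

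The 3-O-sulfotransferases add the rarest modification. Of 6 measured, 2 rose and 0 fell. Hs3st1, whose product makes the antithrombin-binding site, read 6.53, 6.46 and 6.30 in the controls and 6.99, 6.66 and 6.97 in the mutants. All mutants lay above all controls, mutant 2 the least (0.45 ± 0.10, 1.36-fold, limma adjusted p = 0.0391). Its levels were below the median gene, and the call held in 7 of 14 alternatives (adjusted p 0.00619 to 0.153). Among the settings under which it did not pass were those without control 1 (0.0791), control 2 (0.115), control 3 (0.153), mutant 1 (0.0886) or mutant 3 (0.114), and, narrowly, median centring (0.0501).

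Hs3st3b1, a gene for an enzyme of other substrate preference, read 7.27, 7.13 and 7.20 in the controls and 7.46, 7.53 and 7.56 in the mutants. The mutants were tightly grouped above the controls (0.32 ± 0.06, 1.25-fold, limma adjusted p = 0.0167). It passed in 9 of 14 alternatives (adjusted p 0.00922 to 0.0861), and failed, among others, without control 2 (0.0861), control 3 (0.0771) or mutant 3 (0.0551) and with median centring (0.0516). Its near neighbour on chromosome 11, Hs3st3a1, read 5.74, 5.75 and 5.88 in the controls and 5.76, 6.35 and 5.84 in the mutants. Mutant 2 alone stood high, and the difference of 0.19 ± 0.14 did not pass (adjusted p = 0.548). Hs3st2 (-0.07 ± 0.11), Hs3st5 (0.17 ± 0.06) and Hs3st6 (-0.04 ± 0.06) had adjusted p from 0.129 to 0.816. All 3 read below the median gene on every array, and missing the threshold there does not show that they were unaltered.

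**Figure D3:**
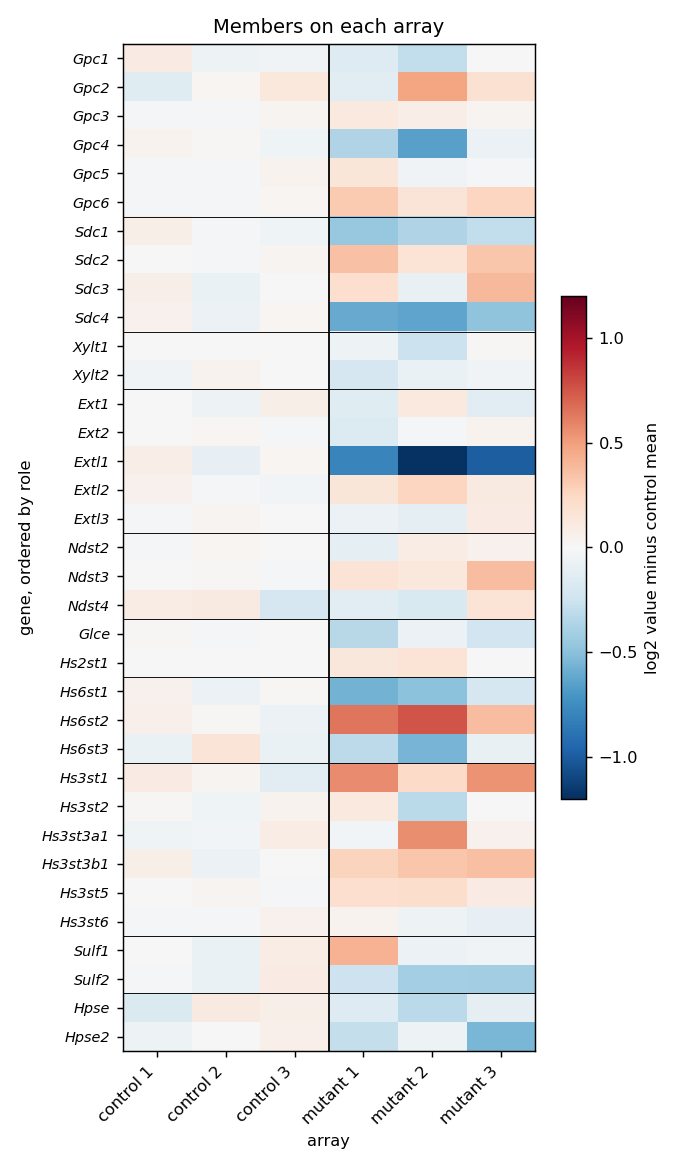
Each member (rows, ordered by role) on each array (columns), coloured by its log2 value minus the control mean. Controls are pale throughout, Extl1 and Sdc4 are low and Hs6st2 high in all 3 mutants, and Gpc4, Sulf1 and Hs3st3a1 each owe their strongest colour to 1 mutant.

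Of the genes that edit or cut the finished chain, 1 of 4 passed. Sulf1 and Sulf2 encode secreted sulfatases that remove 6-O-sulfate groups, the reverse of the step above. Sulf2 read 10.24, 10.17 and 10.36 in the controls and 10.01, 9.85 and 9.84 in the mutants. Every mutant lay below every control (-0.35 ± 0.07, 1.28-fold, limma adjusted p = 0.0245). It passed in 9 of 14 alternatives (adjusted p 0.0147 to 0.106), and failed, among others, without control 1 (0.0832), control 2 (0.0532), control 3 (0.106) or mutant 3 (0.0768).

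Sulf1 read 9.86, 9.78 and 9.95 in the controls and 10.28, 9.79 and 9.82 in the mutants. Mutant 1 stood above all other arrays, while mutants 2 and 3 lay within the controls, and Sulf1 did not pass (0.10 ± 0.13, limma adjusted p = 0.756). Mutant 1 is also the array on which the heart muscle markers were high, and a link between them and Sulf1 was not tested. Without mutant 1 Sulf1 was at -0.06. Sulf1 minus Sulf2 was -0.38, -0.39 and -0.41 in the controls and 0.27, -0.06 and -0.02 in the mutants. The change of 0.46 ± 0.10 showed no overlap (two-sided exact permutation p = 0.1, the smallest possible, and 0.1 over the 4 pairs), and mutant 1 contributed most to it. Sulf2 already showed no overlap alone, while Sulf1 overlapped. The lack of overlap of the pair and this p are thus no evidence that Sulf1 changed, and no further support for the fall of Sulf2.

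**Figure D4:**
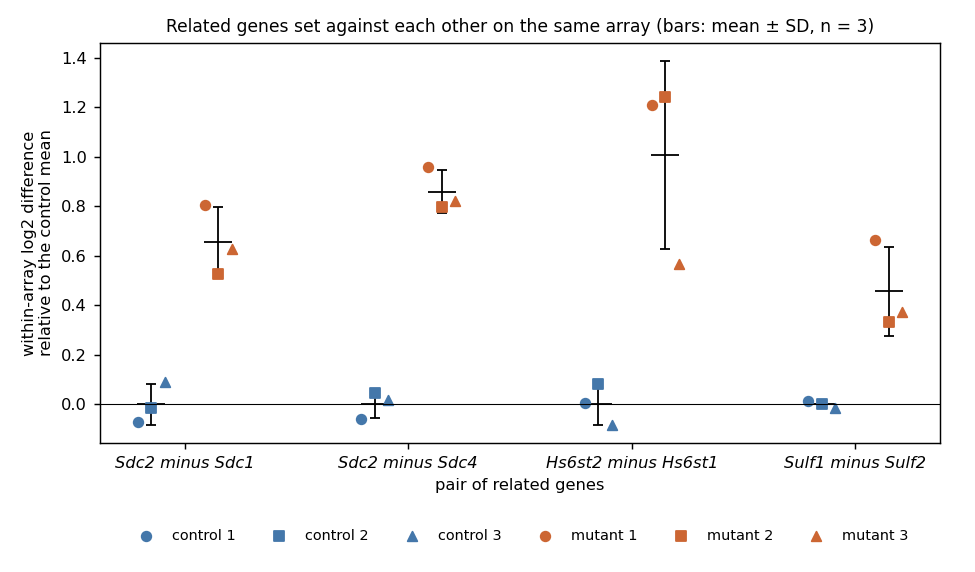
Log2 difference between related genes on the same array (y axis, relative to the control mean) for the 4 pairs compared, with each control and mutant and the group mean ± SD. Each pair sets a gene higher on average in the mutants against a relative that was lower. All mutants lie above all controls, by 1.01 on average for Hs6st2 minus Hs6st1, where mutant 3 lies nearest the controls, and by 0.46 for Sulf1 minus Sulf2, where mutant 1 is highest.

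Hpse, which encodes heparanase, the enzyme that cuts the chain, read 7.23, 7.52 and 7.48 in the controls and 7.26, 7.09 and 7.30 in the mutants. The groups overlapped (-0.19 ± 0.09, limma adjusted p = 0.306). Hpse2, a relative that lacks this activity, read 10.35, 10.42 and 10.47 in the controls and 10.13, 10.35 and 9.86 in the mutants. Mutant 2 was level with the lowest control to 2 decimals, and mutant 3 lay far below. The difference of -0.30 ± 0.11 did not pass (adjusted p = 0.19), except without mutant 2 (0.0309) and with array weights (0.0306), in a range up to 0.449. Mutant 2 was the mutant nearest the controls and had the lowest array weight (0.34), so both settings favour a fall.

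Other genes of the pathway were counted from lists drawn up by role, also with earlier results of these data known. Of 53 measured, 2 rose and 5 fell, or 13.2%, against 7.66% of all genes, and the 7 calls were 4 without control 1. The linker that joins chain and core protein is shared with chondroitin sulfate, and of its 5 enzymes 1 rose. This was B3galt6, which adds the second galactose, at 7.25, 7.42 and 7.32 in the controls and 7.95, 8.16 and 7.87 in the mutants. It was higher in every mutant (0.67 ± 0.09, 1.59-fold, limma adjusted p = 0.00307) and passed in 14 of 14 alternatives. Of 6 other core proteins that can carry heparan sulfate, 1 fell. Col18a1, a basement membrane collagen that carries these chains, read 9.35, 9.31 and 9.27 in the controls and 8.67, 8.56 and 8.79 in the mutants. It was lower in every mutant (-0.64 ± 0.07, 1.56-fold, adjusted p = 0.0015) and passed in 14 of 14 alternatives.

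The supply of sugar nucleotides and sulfate donor showed 0 calls of 10, with Slc35d1, a nucleotide sugar transporter, having the smallest p (0.23 ± 0.06, limma adjusted p = 0.0645). The lysosomal enzymes that break heparan sulfate down showed 0 of 7, with Hgsnat at 0.24 ± 0.09 (adjusted p = 0.185). Hs3st4, a further 3-O-sulfotransferase gene, was at -0.09 ± 0.14 (adjusted p = 0.806). Of 8 chondroitin sulfate core proteins 0 passed, and Cspg5, at -0.25 ± 0.08, came nearest (adjusted p = 0.115).

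Of 16 enzymes of the chondroitin and dermatan branch, which competes for the same linker, 1 rose and 4 fell. Chst11, a chondroitin 4-O-sulfotransferase, read 8.53, 8.50 and 8.41 in the controls and 7.81, 7.84 and 7.97 in the mutants (-0.61 ± 0.07, limma adjusted p = 0.00129). Chsy3, a chain synthase, was at -0.34 ± 0.08 and Chst15, a further sulfotransferase, at -0.31 ± 0.07 (adjusted p = 0.0345 and 0.0427), with 9 and 6 of 14 alternatives passed. Chsy3 did not pass without control 1 (0.11), control 3 (0.12), mutant 1 (0.0683), mutant 2 (0.0634) or mutant 3 (0.0607). Chst15 failed, among others, without control 1 (0.154), control 2 (0.113), control 3 (0.153), mutant 1 (0.097) or mutant 2 (0.0753), and with median centring (0.0513) or array weights (0.0528). Csgalnact2, which starts chondroitin chains, was the fourth gene to fall (-0.26 ± 0.05, adjusted p = 0.0245), and was named after its values were seen. It passed in 9 of 14 alternatives and failed, among others, without control 1 (0.0773), control 2 (0.114), control 3 (0.108) or mutant 3 (0.0703). Dse, the epimerase that makes dermatan sulfate, was higher in every mutant, at 10.12, 10.07 and 10.10 against 9.67, 9.70 and 9.81 (0.37 ± 0.06, adjusted p = 0.0082). Chst11 and Dse passed in 14 of 14 alternatives.

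**Figure D5:**
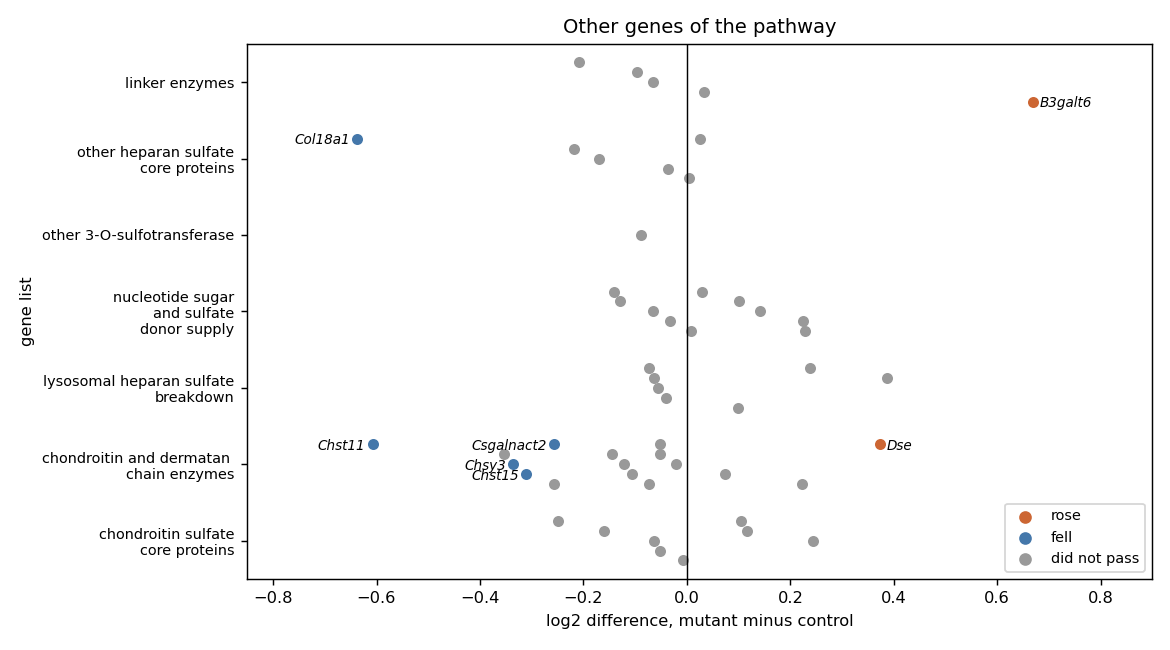
Log2 difference, mutant minus control (x axis), of the 53 other measured genes of the pathway, 1 point a gene, by list (y axis; height within a list has no meaning). The 2 genes that rose and 5 that fell are named, B3galt6 at 0.67 and Col18a1 at -0.64 lying farthest out.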

How the data were processed

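The members and gene lists were chosen with earlier results of these data known. The authors deposited log2 values made by RMA. The submitters' processing notes list the tools oligo, RMA and limma, with no settings. RMA subtracts background, normalizes arrays against each other and summarises a feature's probes, and compresses dim features. Of 35556 features, 21789 have 1 gene symbol in the platform annotation, 1621 several and 12146 none. Single-symbol features entered, and a gene with several was read from its brightest by overall mean, which left 19938 genes. The 6 arrays give no counts, so their number limits the precision.

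Mutant was compared with control in limma 3.58.1 (R 4.3.3; lmFit, eBayes, 7.96 moderated degrees of freedom, two-sided), with Benjamini-Hochberg adjustment over all 19938 genes and a threshold of 0.05. A gene "rose" or "fell" if it passed. The fit was tested on simulated data. All members are named, with values per array where they passed or 1 mutant stood apart. Of each other list, up to 4 genes past the threshold are named, or the one with the smallest p. The 14 alternatives for a gene are 8 other settings (quantile normalization applied again, median centring, the dimmest genes left out, all features tested, features of a gene averaged, a mean-variance trend, array weights, replicate number as a block) and 6 fits that leave out 1 array. Numbers shared by control and mutant samples were not treated as pairs, since their deviations correlated at -0.07, 0.05 and 0.15. RefSeq on GRCm38.p6 was used for names, neighbours and promoter windows.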

Additional observations from a re-analysis of the deposited data

How the results depend on the processing

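Changes of these genes are mostly under 1.5-fold, and 3 arrays a group limit what can be called at that size. Of the 9 members called, Extl1 and Sdc4 passed in 14 of 14 alternatives. The direction of the 9 members and 7 other pathway genes called was the same in all 224 fits. This was largely fixed in advance, since mutants and controls did not overlap for any of these genes. Leaving out or weighting an array could therefore not turn their sign, and several other settings reuse the same difference. The count of members called was 4 with the replicate block and 2 with a fold of at least 1.5 also required, and ran from 3 to 11 with 1 array left out. The count over all genes was 1137 with the block, beside 1528 without it. It was 549 with that fold and ran from 778 to 1745 with 1 array left out. Other pathway genes called numbered 6 with the block and 7 without it, not all of them the same genes. They numbered 3 with that fold and 4 to 7 with 1 array left out. The block ended the calls of Sdc2 (adjusted p = 0.0701), Hs6st1 (0.0522), Hs3st1 (0.0555), Hs3st3b1 (0.0575), Sulf2 (0.0542), Chst15 (0.0689) and Csgalnact2 (0.0832). The labels do not pair same-numbered samples, although Xist was low in replicate 3 of both groups, and 1 of the 3 controls correlated best with the mutant of its own number.

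The sign turned in 17 fits of 8 genes that were not called. Ndst2 was at -0.018 with repeated quantile normalization, -0.017 with median centring and -0.0010 with array weights, which also turned Extl3 (0.014) and Ndst4 (0.027). With 1 array left out the difference ran from -0.036 to 0.068 for Ndst2, from -0.090 to 0.015 for Extl3, from -0.159 to 0.014 for Ndst4, from -0.027 to 0.063 for Gpc5, from -0.089 to 0.014 for Ext2, from -0.162 to 0.060 for Hs3st2, from -0.057 to 0.187 for Sulf1 and from -0.208 to 0.054 for Hs3st4. The cause was not tested. Gpc5, Ndst3, Ndst4, Hs3st3a1 and Hs3st5 have no value with the dimmest genes left out.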
